A study of Mus musculus with 2 samples.

Results

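The 10 genes described here carry out creatine and calcium futile cycling. They were taken by symbol from the 32285 genes counted, whatever their level. Gatm and Gamt make creatine, Slc6a8 imports it, Ckb and Ckmt2 phosphorylate it, and Alpl encodes a phosphatase reported to act on phosphocreatine. Atp2a1 and Atp2a2 encode the SERCA pumps, which move calcium into the endoplasmic or sarcoplasmic reticulum, and Ryr1 and Ryr2 encode the ryanodine receptors that release it.

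Brown adipocytes make heat mainly by uncoupling respiration through Ucp1 in the inner mitochondrial membrane. Futile cycles give heat without Ucp1, by running opposed reactions that spend ATP and leave their substrates unchanged. In one, creatine is phosphorylated and then dephosphorylated. In the other, SERCA pumps calcium into the reticulum and it leaks back, in part through ryanodine receptors. Several of these genes also have their main known roles elsewhere in brown adipose tissue (BAT), in the contractile cells of vessels and in muscle.

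Nuclei were isolated from the interscapular BAT of 8-week-old mice and sequenced in droplets. WT mice were Srsf1 flox/flox littermates without Cre, and KO mice carried Adipoq-Cre with Srsf1 flox/flox, so both groups carried the floxed allele. The Adipoq promoter drives Cre in mature adipocytes and is not known to drive it in the other cells of the tissue. There was 1 library per genotype, the number of mice behind it is not given in the sources used here, and no difference below has a replicate check or a test. Levels are given as UMIs (unique molecular identifiers, 1 per captured RNA molecule) divided by all UMIs of a class of nuclei and scaled to counts per 1000000 (CPM), and ranges in brackets are 95% intervals that cover counting error only.

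The WT library held 12846 barcodes and the KO library 11495, with medians of 3439.5 and 4363 UMIs, and 12771 and 11378 nuclei were kept. The libraries shared 52 barcode sequences. Nuclei were called by sums of marker genes as adipocyte (4220 in WT and 2158 in KO), ASPC (adipose stem and progenitor cells, 421 and 1555), mural (406 and 246), endothelial (2138 and 1024), immune (623 and 3177), Schwann (80 and 30) or skeletal muscle (26 and 18). The other 4857 and 3170 stayed uncalled. The 8 adipocyte markers were all detected in adipocyte nuclei and summed to 12440 CPM in WT and 10922 CPM in KO. Srsf1 (chr11:88047373-88053755), the targeted gene, was 187 CPM in WT and 60.2 CPM in KO adipocyte nuclei, 3.11-fold lower, and was also lower in KO by 0.59 to 0.77 on the log2 scale in ASPC, mural, endothelial and immune nuclei. Which part of Srsf1 is deleted is not given in the sources used here, and it overlaps an antisense gene, Gm11508. Ucp1 was 1813 CPM in WT and 65.7 CPM in KO adipocyte nuclei.

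The libraries clustered apart. Of the adipocyte nuclei, 82.1% in WT lay in cluster 4, led by Kcnd2 and Cabcoco1, and 84.5% in KO lay in cluster 22, led by Gm31522 and Gm47416. Another 333 KO adipocyte nuclei (15.4%) lay in clusters that are not adipocyte clusters, where the 10 immune markers summed to 1510 CPM against 183 CPM in the KO nuclei inside adipocyte clusters. In WT, 506 adipocyte nuclei (12.0%) also lay outside adipocyte clusters, and their endothelial markers summed to 1116 CPM against 176 CPM in those inside. Values inside adipocyte clusters leave out both sets. Each adipocyte result is given with and without these nuclei where they change it. Adipocyte RNA was also counted in other nuclei: Plin1, which coats lipid droplets, stood in endothelial nuclei at 26.6% of its adipocyte level in WT and 6.89% in KO. Ucp1 stood there at 40.4% and 26.7%, and the 8 adipocyte markers together summed to 5063 CPM in WT and 2816 CPM in KO endothelial nuclei. In mural nuclei Ucp1 stood at 45.0% and 45.6% of its adipocyte level. How far the adipocyte RNA in other nuclei differed between the libraries thus depended on the gene and the class.

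In adipocyte nuclei, the futile cycle genes did not move together. Alpl was 2.62-fold higher in KO, Atp2a2 was 1.59-fold lower and Ryr2 was 1.37-fold higher. Ckb was at 3.87 CPM in WT and 3.73 CPM in KO, but at 3.78 and 1.90 CPM inside adipocyte clusters. Gatm and Ryr1 were also higher in KO by 4.26-fold and 6.65-fold, but most of their KO UMIs came from nuclei outside the adipocyte clusters. Ckmt2 and Atp2a1 were 2.86-fold and 4.41-fold lower, and both were at their highest in skeletal muscle nuclei.

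Over both libraries together, 9 of the genes reached 50 UMIs in adipocyte nuclei. Of these, 3 were at least 2-fold higher in KO (Gatm, Alpl and Ryr1), 2 were at least 2-fold lower (Ckmt2 and Atp2a1) and 4 lay between. Gamt, with 33 UMIs, was left out of these counts. Over all 14999 genes with as many UMIs, 23.2% were at least 2-fold higher and 17.1% at least 2-fold lower, or 40.2% in either direction, so the counts of the futile cycle genes were near those of genes at large. Their median log2 ratio was 0.42, and that of all genes was 0.13. Inside adipocyte clusters, where Gatm and Ryr1 had under 50 UMIs, 1 gene was at least 2-fold higher (Alpl) and 2 were lower (Ckmt2 and Atp2a1), as were 20.7% and 17.2% of 14106 genes.

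**Figure D1:**
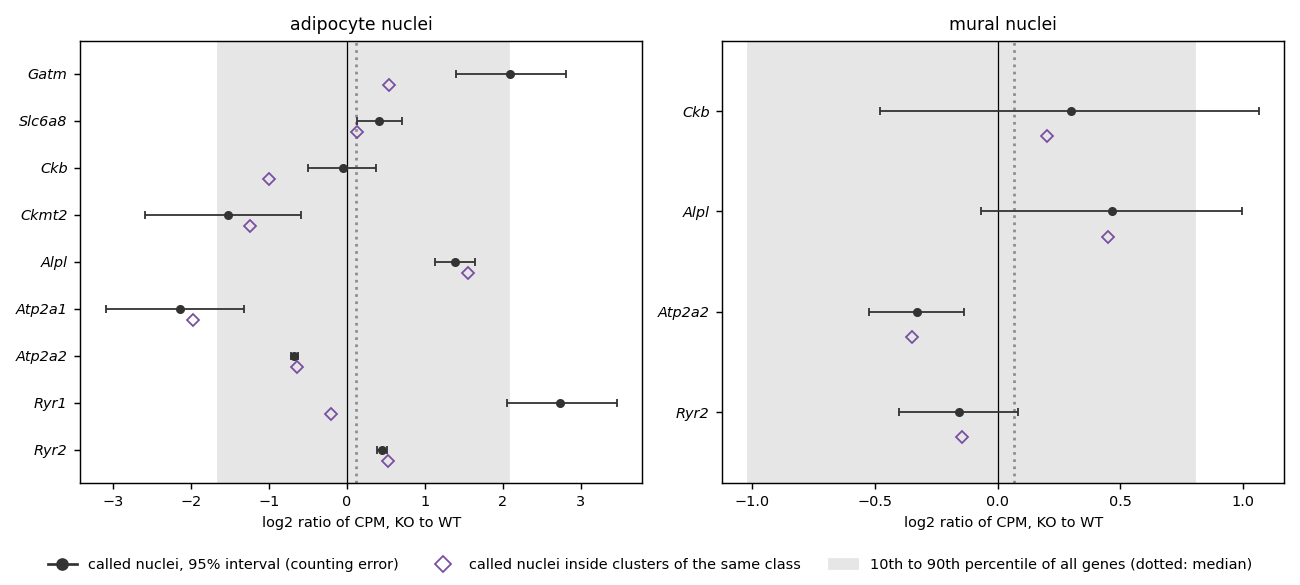
Log2 ratio of CPM in KO to WT for the genes with at least 50 UMIs over both libraries, in adipocyte nuclei (left) and mural nuclei (right), on the x axis. Filled points are all called nuclei with 95% counting intervals, open diamonds are the called nuclei inside clusters of the same class, and the grey band spans the 10th to 90th percentile of all genes, with the median dotted. In adipocyte nuclei Gatm at 2.09 and Ryr1 at 2.73 lie at or past the right edge of the band while their diamonds lie near 0, and Alpl at 1.39 keeps its place.

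Creatine synthesis was scarce in adipocyte nuclei. Gatm (chr2:122594467-122611303), whose enzyme joins arginine and glycine into guanidinoacetate, had 27 UMIs in WT, or 0.71 CPM (0.47 to 1.03), and 54 UMIs in KO, or 3.01 CPM (2.26 to 3.92). The log2 ratio was 2.09 (1.40 to 2.81). Of the 54 KO UMIs, 42 came from the 333 nuclei outside adipocyte clusters, where Gatm was at 8.74 CPM. Inside adipocyte clusters it was 0.62 CPM in WT and 0.91 CPM in KO, from 19 and 12 UMIs. Gamt (chr10:80258151-80261012), which methylates guanidinoacetate to creatine, had 20 UMIs in WT and 13 in KO, at 0.52 CPM (0.32 to 0.81) and 0.72 CPM (0.39 to 1.24). A difference in Gamt was not detectable at this depth.

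Gatm was instead a gene of Schwann and immune nuclei. It stood at 100.7 CPM (72.6 to 136) in the 80 WT Schwann nuclei, from 42 UMIs in 23 nuclei, and at 44.4 CPM (16.3 to 96.6) in the 30 KO Schwann nuclei, from 6 UMIs, and these intervals overlap. In immune nuclei it was 12.0 CPM (8.60 to 16.3) in WT and 25.5 CPM (23.2 to 28.0) in KO, 2.13-fold higher, with a log2 ratio of 1.09 (0.63 to 1.59). Immune nuclei held 21.7% of all Gatm UMIs in WT and 54.1% in KO, while they held 4.31% and 23.2% of all UMIs of the libraries. Within the immune class, cluster 10, led by the macrophage genes Lyve1, Cd163 and F13a1, was at 9.0 CPM (5.98 to 13) in 442 WT nuclei and 36.4 CPM (32.1 to 41.1) in 1672 KO nuclei. Cluster 6, led by the cell division genes Mki67 and Top2a among others, was at 10.8 CPM (4.93 to 20.5) in WT and 23.5 CPM (19.2 to 28.3) in KO. These intervals overlap, which does not show that the levels are equal, and no interval of the ratio is given by cluster. Gatm was thus higher in KO within the macrophage cluster as well as in the whole class.

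Slc6a8 (chrX:73673150-73682502), the creatine transporter, was detected at a low and similar level in most classes. In adipocyte nuclei it was 6.74 CPM (5.95 to 7.62) in WT and 9.02 CPM (7.68 to 10.5) in KO, with a log2 ratio of 0.42 (0.13 to 0.71), and 7.03 CPM and 7.67 CPM inside adipocyte clusters. ASPC, mural and endothelial nuclei ranged from 7.06 to 9.12 CPM over both libraries. Immune nuclei stood at 15.2 CPM (11.3 to 19.9) in WT, overlapping ASPC and mural nuclei, and at 14.1 CPM (12.3 to 16) in KO. The immune level was not even: cluster 23, 852 KO nuclei led by Rgs1, Atp6v0d2 and Mmp12, was at 44.6 CPM (38.7 to 51.1), and cluster 10 was at 12.5 CPM in WT and 5.50 CPM (3.91 to 7.52) in KO. The 7 WT nuclei in cluster 23 held 5 Slc6a8 UMIs, at 99.7 CPM (32.4 to 233), which overlaps the KO level.

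Ckb encodes the cytosolic brain-type creatine kinase. It is a short gene on the minus strand (chr12:111669361-111672338), and its upstream sequence is shown because the gene was low in every adipocyte subset and higher in vessel, immune and Schwann nuclei. The 250 bases before its RefSeq start (GRCm38.p6, chr12:111672339-111672588) read, 5′ to 3′, with matches to motifs in capitals:
Ckb: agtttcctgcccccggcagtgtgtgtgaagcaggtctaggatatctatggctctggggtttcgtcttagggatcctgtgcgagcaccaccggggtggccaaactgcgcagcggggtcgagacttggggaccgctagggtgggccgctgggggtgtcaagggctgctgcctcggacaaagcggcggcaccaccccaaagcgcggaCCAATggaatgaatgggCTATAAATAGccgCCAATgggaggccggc
The capitals mark matches on either strand to the CRE (TGACGTCA), the ERR half-site (AAGGTCA), the GC box (GGGCGG), the CCAAT box (CCAAT), the TATA box (TATAAA) and, by name, the CArG and MEF2 boxes. The shorter CRE core TGACG and the E-box CANNTG, held by 17.9% and 66.2% of such windows, were searched too and are not in capitals. CCAAT lay at -46 and -16 from the start, and the TATA box at -28 lay inside a MEF2 box at -29. Of 32536 distinct RefSeq windows of this length, 33.8% held CCAAT, 12.3% TATAAA and 2.89% a MEF2 box. Neither unmarked motif was in the Ckb window. A match describes the letters and is not evidence of binding. Such windows were matched for 8 of the 10 genes, and not for Slc6a8 or Atp2a2.

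In adipocyte nuclei Ckb had 148 UMIs in WT, or 3.87 CPM (3.27 to 4.54), and 67 in KO, or 3.73 CPM (2.89 to 4.74), with a log2 ratio of -0.05 (-0.49 to 0.37). Inside adipocyte clusters it was 3.78 CPM in WT and 1.90 CPM (1.23 to 2.80) in KO, and the 333 KO nuclei outside them stood at 8.74 CPM. The order in WT was Schwann (26.4 CPM), mural (18.8), endothelial (12.4), immune (12.0), ASPC (5.63) and adipocyte nuclei, with no UMI in skeletal muscle nuclei. The intervals of the first pair, of mural and endothelial nuclei and of ASPC and adipocyte nuclei overlap. In KO, Ckb was higher in ASPC, from 5.63 CPM (3.34 to 8.89) to 11.0 CPM (8.98 to 13.4), and in the immune class, at 18.0 CPM (16.1 to 20.2). The immune clusters did not share a direction: cluster 10 was at 6.43 CPM (3.93 to 9.92) in WT and 14.1 CPM (11.5 to 17.2) in KO, and cluster 6 at 24.0 CPM (14.6 to 37.0) and 11.7 CPM (8.81 to 15.3), which overlap. Cluster 7, led by the dendritic cell genes Clec9a and Flt3 among others, was at 112 CPM (51.4 to 213) in 25 WT nuclei and 51.5 CPM (38.6 to 67.4) in 135 KO nuclei, which also overlap, and cluster 23, nearly all KO, at 25.5 CPM in KO. In the WT endothelial cluster 3 it was 18.3 CPM (14.4 to 22.9).

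Ckmt2 (chr13:91853387-91876885), the sarcomeric mitochondrial creatine kinase of muscle, had 67 UMIs in WT adipocyte nuclei and 11 in KO, at 1.75 CPM (1.36 to 2.22) and 0.61 CPM (0.31 to 1.10), with a log2 ratio of -1.52 (-2.59 to -0.59). It overlaps 1700119I11Rik on the other strand, and whether the counts used strand is not given in the sources used here. It was at 0 UMIs in mural nuclei of both libraries. The summed level of the 12 skeletal muscle markers in adipocyte nuclei was 50.7 CPM in WT and 15.7 CPM in KO, with Myh1 at 0 in KO. Ckmt2 UMIs were 3.45% of the summed UMIs of these markers in WT adipocyte nuclei and 0.11% in WT muscle nuclei. In KO they were 3.90% and 1.57%. The part of muscle RNA in the Ckmt2 difference was not tested.

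**Figure D2:**
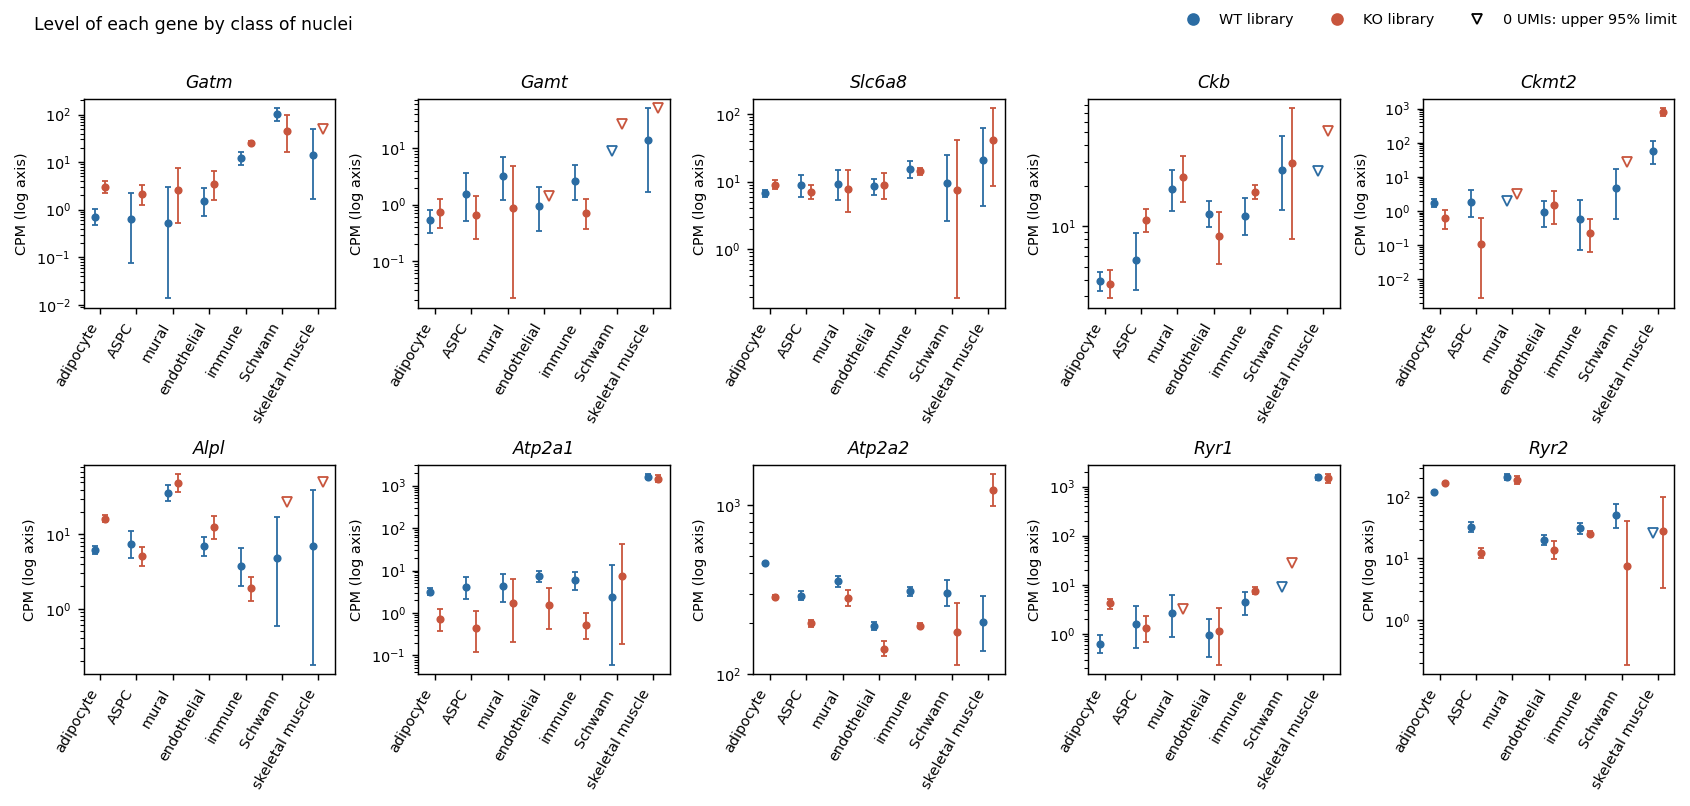
CPM of each gene (y axis, log scale, with its own range per gene) by class of nuclei (x axis) in the WT library (blue) and the KO library (red), with exact 95% counting intervals; open triangles are upper limits where no UMI was counted. Alpl is highest in mural nuclei at 35.9 and 49.6 CPM, Atp2a1 and Ryr1 are above 1000 CPM in skeletal muscle nuclei, and Atp2a2 is lower in KO in each class except skeletal muscle.

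Alpl (chr4:137741733-137796384, minus strand) encodes tissue-nonspecific alkaline phosphatase, a membrane enzyme also known from bone mineralization. It has a pair of RefSeq starts, and both upstream windows of 250 bases are shown because it was the creatine gene with the clearest difference in adipocyte nuclei. The first lies before the gene (chr4:137796385-137796634) and the second inside an intron of the longer transcript (chr4:137766476-137766725):
Alpl, first start: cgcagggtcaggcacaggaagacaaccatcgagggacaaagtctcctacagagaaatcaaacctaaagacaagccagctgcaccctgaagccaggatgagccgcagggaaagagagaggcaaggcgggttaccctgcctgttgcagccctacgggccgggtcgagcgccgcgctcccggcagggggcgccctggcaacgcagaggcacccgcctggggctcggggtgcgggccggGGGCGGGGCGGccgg
Alpl, second start: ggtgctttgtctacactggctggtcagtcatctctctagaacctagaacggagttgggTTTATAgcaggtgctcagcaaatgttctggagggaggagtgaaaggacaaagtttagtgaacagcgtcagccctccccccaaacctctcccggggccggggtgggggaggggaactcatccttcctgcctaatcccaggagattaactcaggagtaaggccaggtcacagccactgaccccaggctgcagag
In the first, overlapping GC boxes lay at -15 and -10, and 33.0% of all such windows held a GC box, and an E-box lay at -176. In the second, the TATA box letters lay at -192 on the opposite strand, the CRE core at -128 and E-boxes at -185 and -174. Counts from the 3′ end do not tell which start was used.

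In adipocyte nuclei Alpl was 6.25 CPM (5.48 to 7.09) in WT, from 239 UMIs in 202 nuclei, and 16.4 CPM (14.5 to 18.3) in KO, from 294 UMIs in 165 nuclei. The log2 ratio was 1.39 (1.14 to 1.64), and the intervals do not overlap. Inside adipocyte clusters the levels were 6.05 and 17.7 CPM. An Alpl UMI was found in 4.79% (4.16 to 5.47) of the WT adipocyte nuclei, whose median depth was 7162 UMIs, and in 7.65% (6.56 to 8.85) of those of KO, at 6443.5 UMIs. In endothelial nuclei, at 2356 and 2171 UMIs, the shares were 1.78% and 2.44%. With each adipocyte nucleus thinned to 1000 UMIs, which left out 28 WT and 24 KO nuclei, they were 0.64% and 1.54%. The share of adipocyte nuclei with Alpl was higher in KO on each of these scales.

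Alpl was highest in mural nuclei, at 35.9 CPM (27.9 to 45.6) in WT and 49.6 CPM (37.7 to 64.2) in KO, with a log2 ratio of 0.47 (-0.07 to 1.00). In WT the next classes, ASPC (7.50 CPM), endothelial (6.95) and adipocyte nuclei, overlapped in their intervals. In KO the adipocyte level overlapped the endothelial level of 12.6 CPM (8.66 to 17.7) and lay above the 5.08 CPM (3.72 to 6.77) of ASPC. The endothelial level in WT was 6.95 CPM (5.07 to 9.30), for a log2 ratio of 0.86 (0.16 to 1.54). Most WT and KO endothelial nuclei lay in different clusters, however, and the endothelial cluster 2, which both libraries shared and which was led by Nebl, Bmx and Gja5, a gene of arterial endothelium, was at 27.0 CPM (16.9 to 40.9) in WT and 37.8 CPM (20.1 to 64.7) in KO. The WT endothelial cluster 3 was at 3.80 CPM (2.17 to 6.17). Alpl was thus uneven within the vessel wall, in endothelial as in mural nuclei.

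Atp2a2 (chr5:122453513-122502225) encodes SERCA2, the pump of heart, slow muscle and most other cells, and had the most UMIs of the 10 genes. In adipocyte nuclei it was 455 CPM (448 to 461) in WT, from 17390 UMIs, and 285 CPM (277 to 293) in KO, from 5122 UMIs. The log2 ratio was -0.67 (-0.72 to -0.63), and inside adipocyte clusters the levels were 460.0 and 295 CPM. A UMI of it was found in 88.9% of the adipocyte nuclei of WT and 74.1% of those of KO, and after thinning to 1000 UMIs in 35.4% and 24.5%. Endothelial nuclei had it in 34.6% and 26.5%, unthinned.

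Atp2a2 was also counted at a lower level in KO in the other classes except skeletal muscle. It was 355 and 282 CPM in WT and KO mural nuclei, 309 and 194 in immune, 305 and 178 in Schwann, 292 and 199.6 in ASPC and 192 and 142 in endothelial nuclei, with log2 ratios from -0.78 to -0.33. None of these intervals of the ratio reached 0. Within mural nuclei, that of pericytes did, at a log2 ratio of 0.12 (-0.14 to 0.38). In WT the adipocyte level lay above the rest and the endothelial level below them, while the intervals of mural, immune and Schwann nuclei overlapped, as did those of immune, Schwann and ASPC nuclei. As a share of the adipocyte level, endothelial nuclei stood at 42.3% in WT and 49.8% in KO. The same share went from 26.6% to 6.89% for Plin1 and from 40.4% to 26.7% for Ucp1. Background from adipocytes was therefore not the same for the libraries, and its part in the ratios of the other classes was not tested.

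Atp2a1 (chr7:126445858-126463108) encodes SERCA1, the pump of fast skeletal muscle. In the skeletal muscle nuclei it was 1608 CPM (1406 to 1830) in 26 WT nuclei and 1449.6 CPM (1186 to 1755) in 18 KO nuclei, which overlap. In adipocyte nuclei it was 3.19 CPM (2.65 to 3.81), from 122 UMIs, in WT and 0.72 CPM (0.39 to 1.24), from 13 UMIs, in KO, with a log2 ratio of -2.14 (-3.09 to -1.31). It was also lower in KO in endothelial nuclei, at 7.26 and 1.53 CPM, and in immune nuclei, at 5.84 and 0.53 CPM. Set against the 12 skeletal muscle markers, Atp2a1 UMIs were 6.29% of their summed UMIs in WT adipocyte nuclei, 6.28% in ASPC, 5.68% in endothelial and 6.06% in immune nuclei, but 1.84% in mural and 3.19% in the muscle nuclei themselves. In KO the share was 4.61% in adipocyte, 2.25% in ASPC, 2.06% in mural and 2.88% in muscle nuclei. The part of muscle RNA in the adipocyte counts was not tested. Atp2a1 also overlaps Rabep2 on the other strand.

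Ryr1 (chr7:29003344-29125179), the release channel of skeletal muscle, had 24 UMIs in 24 WT adipocyte nuclei and 75 UMIs in 16 KO adipocyte nuclei, of which 1 nucleus held 35. The levels were 0.63 CPM (0.40 to 0.93) and 4.17 CPM (3.28 to 5.23). Inside adipocyte clusters they were 0.79 CPM (0.51 to 1.17) in WT and 0.68 CPM (0.31 to 1.30) in KO, from 24 and 9 UMIs. That comparison leaves out 506 WT nuclei with no Ryr1 UMI as well as the 333 KO nuclei. The intervals overlap, so no direction is read inside adipocyte clusters. The 333 KO nuclei held 66 of the 75 KO UMIs. Cluster 12, which stayed unnamed and was almost all KO, with a median of 812 UMIs, held 60 of them in 65 nuclei called adipocyte and 147 Ryr1 UMIs in 33 of all its 897 KO nuclei, at 90.8 CPM (76.7 to 107). In skeletal muscle nuclei Ryr1 was 1545 CPM in WT and 1463 CPM in KO, from 220 and 106 UMIs. In immune nuclei it was 4.38 CPM (2.45 to 7.23) in WT and 7.60 CPM (6.34 to 9.03) in KO, and the KO immune clusters 6 and 7 stood at 17.2 and 20.4 CPM. Ryr1 UMIs were 3.06% of the muscle marker sum in WT muscle nuclei and 61.4% in KO immune nuclei, from 129 UMIs. Gm38979 and Gm26604 overlap Ryr1 on the other strand.

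**Figure D3:**
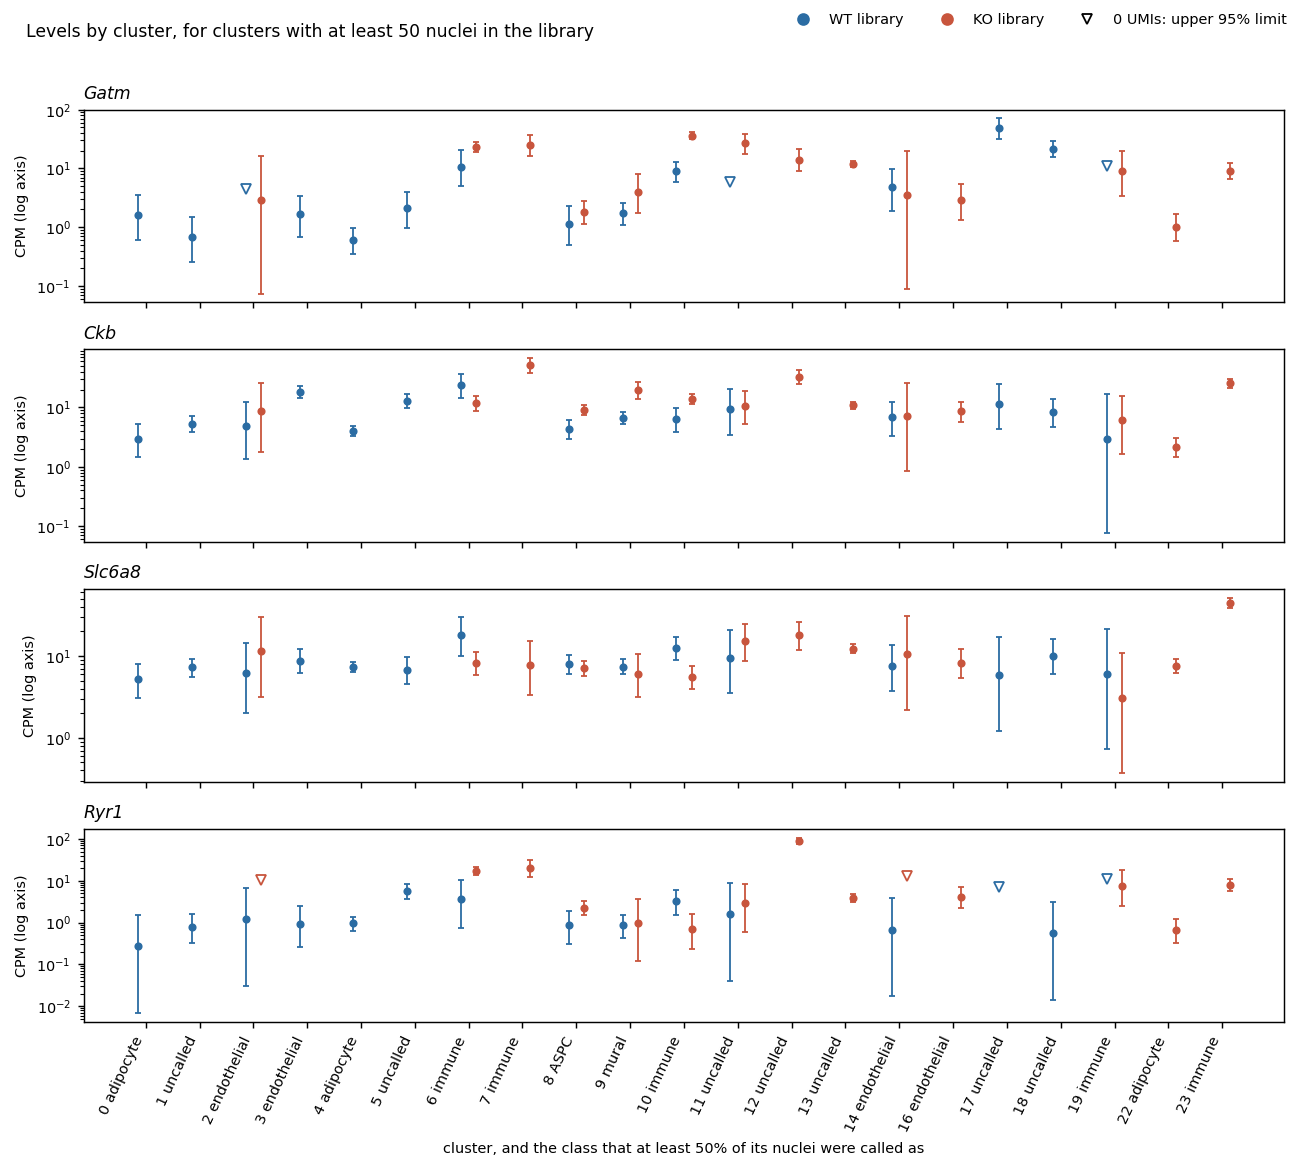
CPM (y axis, log scale) of Gatm, Ckb, Slc6a8 and Ryr1 in each cluster of nuclei (x axis, with the class that at least 50% of its nuclei were called as) for WT (blue) and KO (red), with 95% counting intervals and open triangles for upper limits at 0 UMIs. Only clusters with at least 50 nuclei in a library are drawn for that library, which leaves out the skeletal muscle cluster. In KO, Ryr1 is at 90.8 CPM in the unnamed cluster 12, and in immune clusters Slc6a8 is at 44.6 CPM in cluster 23, Ckb at 51.5 CPM in cluster 7 and Gatm at 36.4 CPM in cluster 10.

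Ryr2 (chr13:11553102-12106945) spans 553.8 kb and encodes the release channel of the heart. In adipocyte nuclei it was 122 CPM (118 to 125) in WT, from 4658 UMIs, and 167 CPM (161 to 173) in KO, from 3001 UMIs, with a log2 ratio of 0.46 (0.39 to 0.52). Inside adipocyte clusters the levels were 125 and 182 CPM. The share of adipocyte nuclei with a UMI went the other way, from 38.1% in WT to 31.0% in KO, and after thinning to 1000 UMIs it was 10.1% and 11.8%, so no order is read from the share. Endothelial nuclei had it in 4.40% and 2.83%. In WT, mural nuclei were highest (210.3 CPM), followed by adipocyte (122), Schwann (50.4), ASPC (32.5), immune (31.0) and endothelial nuclei (19.9), and the intervals of Schwann, ASPC and immune nuclei overlap.

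Of the classes outside adipocytes, the clearest difference in Ryr2 was in ASPC, where it was 32.5 CPM (26.6 to 39.4) in WT and 12.1 CPM (9.97 to 14.6) in KO, with a log2 ratio of -1.42 (-1.82 to -1.02). Over all nuclei of the ASPC cluster 8, Ryr2 was 59.7 CPM in WT and 34.3 CPM in KO, so the size of the difference depends on which nuclei are counted. In endothelial nuclei it was 19.9 and 13.7 CPM and in immune nuclei 31.0 and 25.3 CPM, with intervals of the ratio that reach 0. The adipocyte markers in ASPC nuclei summed to 5005 CPM in WT and 918 CPM in KO, and their part in the Ryr2 difference was not tested. Of the genes with at least 50 UMIs, 1 of 5 in ASPC was at least 2-fold lower in KO and 0 were higher (15.3% and 6.3% of all genes), 1 of 6 in endothelial nuclei was lower and 0 were higher (14.8% and 3.63%), and 1 of 6 in immune nuclei was higher and 0 were lower (5.56% and 14.8%).

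Adipocyte nuclei were divided into brown-like (3668 in WT and 65 in KO), white-like (214 and 366) and other nuclei (338 and 1727) by markers such as Ucp1 and Cidea or Lep and Nnat. The near loss of brown-like nuclei in KO is partly set by the rule, since Ucp1 and Cidea are among its markers. A nucleus was white-like at 5 or more UMIs of the white-like markers, not scaled for depth and whatever its brown-like markers. White-like nuclei were deep, with medians of 11279 UMIs in WT and 10524.5 in KO. Their brown-like markers summed to 5463 CPM in WT and 299 CPM in KO, so white-like comparisons between genotypes set unlike nuclei side by side. The same holds for the other adipocytes, at 2719 and 631 CPM, and for brown-like nuclei, at 9654 and 5607 CPM. In the other adipocytes, Alpl was 4.33 CPM (2.08 to 7.96) in WT, from 10 UMIs, and 19.7 CPM (17.3 to 22.3) in KO. The log2 ratio was 2.18 (1.28 to 3.26). Alpl was 6.35 and 21.2 CPM in brown-like nuclei, the latter from 8 UMIs, with an overlapping log2 ratio of 1.74 (0.51 to 2.74). It was 6.57 and 8.12 CPM in white-like nuclei, where the interval of the log2 ratio of 0.31 (-0.43 to 1.07) included 0. Within KO, white-like nuclei had less Alpl than the other adipocytes, with a log2 difference of -1.27 (-1.78 to -0.80). White-like nuclei of KO thus stood near the WT level of Alpl.

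Ryr2 followed a like order. It was 126 CPM in WT and 206 CPM in KO brown-like nuclei, 142 and 207 CPM in the other adipocytes, and 79.0 and 68.8 CPM in white-like nuclei, where the log2 ratio was -0.20 (-0.42 to 0.02). White-like nuclei of KO had less Ryr2 than the other adipocytes, with a log2 difference of -1.59 (-1.75 to -1.43), and less Slc6a8, with one of -1.15 (-1.83 to -0.52). In WT, too, Ryr2 was lower in white-like than in brown-like nuclei, with a log2 difference of -0.67 (-0.84 to -0.50).

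Atp2a2 was lower in KO in white-like nuclei, at 345 and 209 CPM (log2 ratio -0.72, -0.84 to -0.61), and in the other adipocytes, at 401 and 310 CPM (-0.37, -0.48 to -0.27). In the brown-like nuclei it was 472 CPM (464 to 479) in 3668 WT nuclei and 511 CPM (441 to 588) in 65 KO nuclei, a log2 ratio of 0.11 (-0.10 to 0.32). Ckb lay between 2.27 and 5.29 CPM in all adipocyte subsets of both libraries, the top value from 2 UMIs in 1 of 65 KO brown-like nuclei. These subsets include nuclei outside adipocyte clusters, and inside those clusters Ckb was 3.78 CPM in WT and 1.90 CPM in KO.

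**Figure D4:**
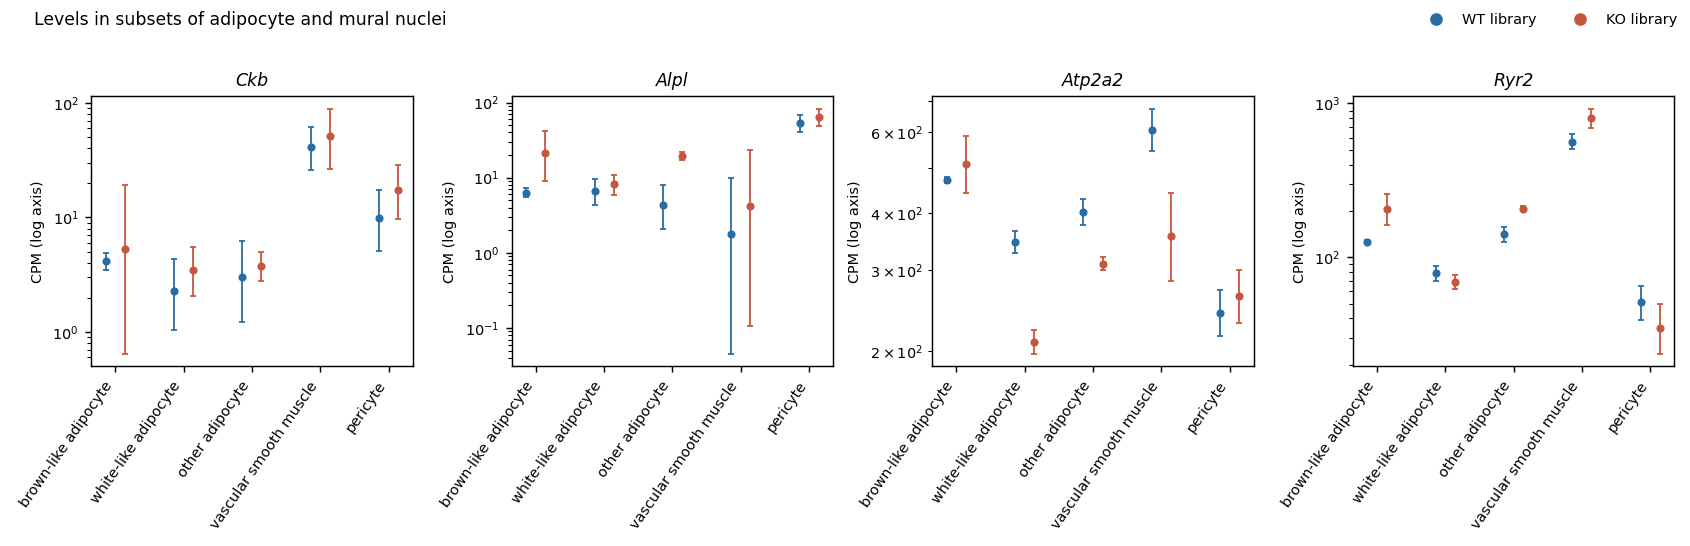
CPM (y axis, log scale) of Ckb, Alpl, Atp2a2 and Ryr2 in subsets of adipocyte and mural nuclei (x axis) for WT (blue) and KO (red), with 95% counting intervals. Ryr2 is highest in vascular smooth muscle nuclei, at 564 and 803 CPM, and Alpl in pericyte nuclei, at 52.6 and 63.7 CPM.

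Mural nuclei split the calcium genes from Alpl. By their markers, 103 WT and 45 KO mural nuclei were vascular smooth muscle, the contractile layer of arteries, and 285 and 175 were pericytes, which wrap capillaries. In WT, Ryr2 was 564 CPM (504 to 630) in smooth muscle and 51.0 CPM (39.1 to 65.4) in pericyte nuclei, a log2 difference of 3.47 (3.07 to 3.88), and in KO it was 803 CPM (692 to 925) and 34.7 CPM (23.4 to 49.6), a difference of 4.53 (3.97 to 5.14). Alpl was the reverse, with 1 UMI in smooth muscle nuclei of each library against 64 UMIs (52.6 CPM) in WT and 55 UMIs (63.7 CPM) in KO pericyte nuclei. Both libraries thus placed Ryr2 in smooth muscle and Alpl in pericytes.

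Atp2a2 was 607 CPM (544 to 675) in WT smooth muscle and 242 CPM (215 to 271) in WT pericyte nuclei, a log2 difference of 1.33 (1.10 to 1.56). In KO it was 357 CPM (284 to 442) and 263 CPM (230.0 to 299), a difference of 0.44 (0.06 to 0.81). Ckb was 40.8 CPM in WT smooth muscle and 9.87 CPM in WT pericyte nuclei, and 51.0 and 17.4 CPM in KO, from 12 to 23 UMIs each. Of the other genes of the calcium pathway, Ryr3, the other ryanodine receptor, was 103 CPM in WT and 55.2 CPM in KO smooth muscle nuclei, and Jph2, which ties the reticulum to the plasma membrane, was 369 and 416 CPM.

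Between genotypes, the mural class as a whole differed little. Of the 4 genes with at least 50 UMIs, 0 were at least 2-fold higher and 0 at least 2-fold lower in KO, where 6.16% and 10.2% of 7650 genes were, and their median log2 ratio was 0.07, as was that of all genes. Ryr2 was 210.3 CPM (190.0 to 232) in WT and 188 CPM (164 to 215) in KO, with a log2 ratio of -0.16 (-0.40 to 0.08). Ckb was 18.8 CPM and 23.1 CPM, with a log2 ratio of 0.30 (-0.48 to 1.07), and Atp2a2 was lower in KO, at -0.33 (-0.52 to -0.14). With the mural cluster in place of called nuclei, the log2 ratio was 1.42 for Alpl and 1.55 for Ckb, and Ryr2 turned to 0.22, so the mural ratios of these genes depend on which nuclei are counted. Within smooth muscle nuclei alone, the log2 ratios were 0.51 (0.24 to 0.77) for Ryr2 and -0.77 (-1.13 to -0.42) for Atp2a2, and within pericytes they were -0.55 (-1.23 to 0.10) and 0.12 (-0.14 to 0.38). The share of smooth muscle nuclei with a Ryr2 UMI, not thinned, went the other way, from 61.2% in WT to 48.9% in KO. A single nucleus held up to 35 Ryr2 UMIs in each library. In mural nuclei the adipocyte markers summed to 5788 CPM in WT and 3231 CPM in KO, and the immune markers to 136 and 653 CPM.

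Of 43 other genes of these pathways, chosen by role, 42 had a row (Erln did not) and 33 had at least 50 UMIs in adipocyte nuclei. In KO 5 were at least 2-fold higher, 10 were at least 2-fold lower and 18 lay between, with a median log2 ratio of -0.19, against 23.2% and 17.1% of all genes. With a minimum of 200 UMIs the counts were 3 higher and 6 lower, and the shares of all genes at that minimum are not given. Counts this small are not read as a difference from genes at large. Of the IP3 receptors, which also release calcium from the reticulum, Itpr2 was lower, at 1231 CPM in WT and 308 CPM in KO, as was Itpr1, at 966 and 319 CPM, while Itpr3 was 2.12 and 2.73 CPM. Adra1a, an alpha-1 adrenergic receptor that raises calcium, was 984 and 365 CPM. Pln, which encodes phospholamban, an inhibitor of SERCA2, was 6.69 and 1.61 CPM. The other genes at least 2-fold lower were Smdt1 (27.3 and 9.85 CPM), Orai3 (7.76 and 3.34), Ryr3 (1.73 and 0.17), Ckm (1.36 and 0.22), Trdn (1.44 and 0.61) and Arg2 (1.39 and 0.45). Ckm and Trdn are muscle genes, and the muscle markers were lower in KO adipocyte nuclei too, as given above.

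Higher in KO was Slc7a1, which carries the arginine used in creatine synthesis, at 2.09 CPM (1.66 to 2.60) in WT and 62.2 CPM (58.6 to 66.0) in KO. It was detected in 600 of 2158 KO adipocyte nuclei and 68 of 4220 WT nuclei. Mcub, a dampening subunit of the mitochondrial calcium uniporter, was 1.31 and 15.6 CPM. Inside adipocyte clusters Mcub was 0.89 and 3.72 CPM, and in the 333 KO nuclei outside them 48.1 CPM. Orai2, a store-operated calcium channel, was 1.15 and 7.85 CPM, Atp2a3, the SERCA pump known from blood cells, 2.22 and 14.5 CPM, and Casq1, a calcium buffer of muscle, 2.20 and 4.90 CPM. Mcu, the pore of the uniporter, was also higher in KO but under 2-fold (143 and 283 CPM), while Stim1, the calcium sensor of the reticulum, was 518 and 304 CPM. Inside adipocyte clusters, Slc7a1 was 1.35 CPM in WT and 62.1 CPM in KO, Orai2 1.18 and 6.99, Atp2a3 1.58 and 15.3, and Casq1 2.17 and 5.24. The immune markers summed to 58.8 CPM in WT and 538 CPM in KO adipocyte nuclei, and to 52.0 and 183 CPM inside adipocyte clusters. The part of immune RNA in these differences was not tested.

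**Figure D5:**
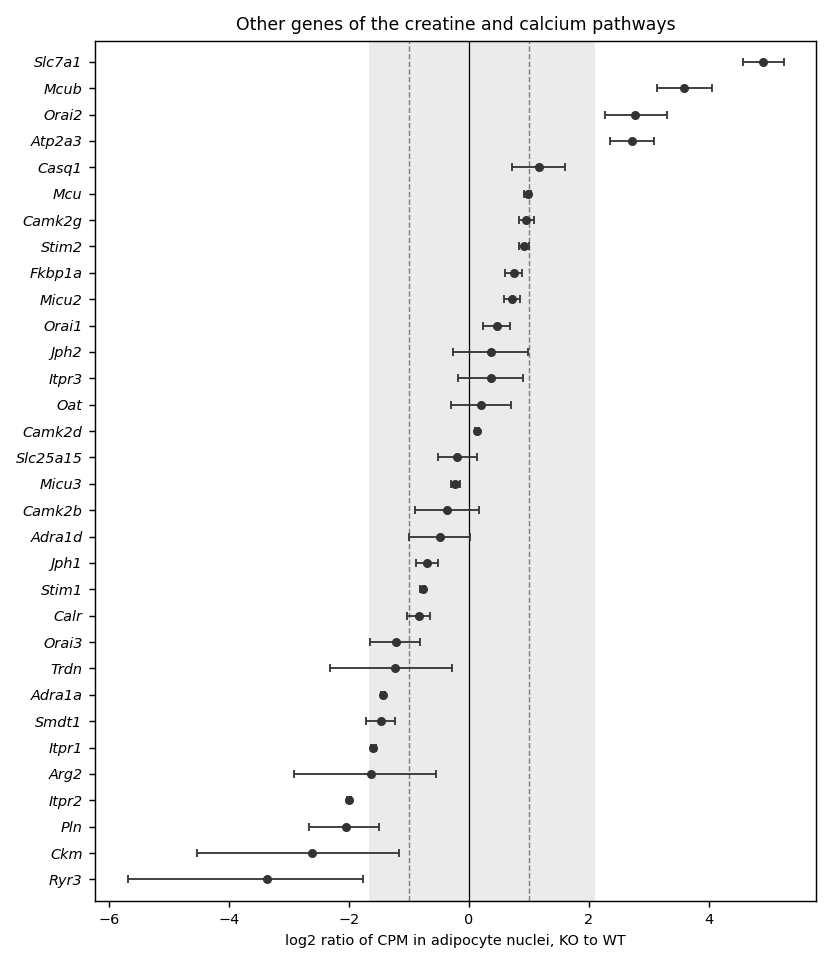
Log2 ratio of CPM in KO to WT in adipocyte nuclei (x axis) for other genes of the creatine and calcium pathways with at least 50 UMIs (y axis, in order of ratio), with 95% counting intervals; 1 of the 33 is not drawn. Dashed lines mark 2-fold, and the grey band spans the 10th to 90th percentile of all genes. Slc7a1 at 4.90, Mcub, Orai2 and Atp2a3 lie to the right of the band, and Itpr2 at -2.0, Pln, Ckm and Ryr3 to its left.

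Skeletal muscle nuclei were few. The share of all genes that differed there is not given, so no count of differing cycle genes is read. Ckmt2 was 56.2 CPM (24.2 to 111) in 26 WT nuclei, from 8 UMIs in 5 nuclei, and 787 CPM (596 to 1020) in 18 KO nuclei, from 57 UMIs in 8 nuclei. Atp2a2 was 204 CPM (136 to 292), from 29 UMIs in 4 nuclei, and 1243 CPM (999 to 1527), from 90 UMIs in 6 nuclei. Atp2a1 and Ryr1 were close between the libraries, as given above. With so few nuclei, these values describe the nuclei caught and cannot be told apart from a difference in which muscle fibres they came from.

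Which genes followed each cycle gene over the classes was described by Pearson's r of log2(CPM + 1) over 14 points, the 7 classes in each library, among 15157 genes with at least 200 UMIs. The points share 2 libraries and background, and r has no p here. Nearest to Atp2a1 were Mir133a-1hg (r = 0.98), Xirp2 and Mypn, to Ryr1 Nrap (0.98), Trdn and Gm43824, and to Ckmt2 Rbm20 (0.95), Hs3st5 and Myh2. Several of these are known muscle genes, and the muscle nuclei are the points that stand apart. For Slc6a8 they were Nrap (0.95), Cep85 and Homer2, for Ckb Atpif1 (0.95), Gm49747 and Ado, for Alpl Pip5k1b (0.94), Sycp2 and Trmt9b, and for Gatm 9530059O14Rik (0.93), Egr2 and Prelid3a. For Ryr2 they were Map3k5 (0.91), Ccdc3 and Fubp1, and for Atp2a2 Fv1 (0.90), Det1 and Sugp2. Gamt had under 200 UMIs and was not compared.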

How the data were processed

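The deposited values were UMI counts of genes in each barcode, not normalized, from 1 WT and 1 KO library. Reads were aligned to GRCm38 with STAR and counted with Cell Ranger (5.0.0 per the submitters' notes). Whether intronic reads and strand were used is not given in the sources used here. Nuclei entered when 200 genes or more were detected, when the logarithms of their UMI and gene numbers lay within 3 median absolute deviations of the median, and when mitochondrial UMIs made up no more than 10%.

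Nuclei were called by a negative binomial likelihood (dispersion 0.3) over the sums of 7 marker lists, with a posterior of at least 95%, at least 3 marker UMIs, and an own share of at least 50% of the class profile. Leiden clusters (resolution 0.5, 2000 variable genes, 30 components, 15 neighbours) were a separate grouping. A cluster took a class held by at least 50% of its nuclei. Scrublet called 0 of 12771 WT and 20.6% of 11378 KO nuclei as doublets, and so separated none in WT, and no nucleus was removed by it.

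Counts were summed per class and library and scaled to CPM. Intervals are exact Poisson for levels and shares exact binomial (Clopper-Pearson), and log2 ratios have conditional exact binomial intervals. Where separate intervals of levels are said to overlap, this does not show that the levels are equal. With 1 library per genotype no test was made. A difference was counted at 2-fold with at least 50 UMIs over both libraries. A fold against 0 UMIs used 3 counts. The calculation was checked on simulated counts.

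The genes, lists, marker rule and thresholds were chosen with earlier results of these data known. Named genes are the 10 genes, markers used as checks, other pathway genes past 2-fold, and the 3 genes with the highest r. Of the listed genes, 1 is counted but not reported by name here. Other names (Mcu, Stim1, Jph2 and cluster leaders) were chosen after their values were seen. Alternatives were other filters on nuclei, called classes from named clusters, a stricter posterior of 99.9%, removal of the top 10% of doublet scores, means over nuclei, subtraction of the endothelial level, centred ratios, other UMI minimums and thinning. Gene places are from GENCODE M21 and promoter windows from RefSeq (GRCm38.p6). Tools were Python 3.11.15, matplotlib 3.10.9, scanpy 1.11.5, scikit-learn 1.9.0, scipy 1.17.1, anndata 0.12.19, igraph 0.11.9, pandas 2.3.3 and numpy 2.4.6.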

Additional observations from a re-analysis of the deposited data

Results flagged for a closer look

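Ryr2 went in opposite directions in 2 classes of nuclei. The KO level over the WT level, on the log2 scale, was 0.46 (0.39 to 0.52) in adipocyte nuclei and -1.42 (-1.82 to -1.02) in ASPC nuclei, and the difference between the classes was not tested, with 1 library per genotype. As a share of the adipocyte level, Ryr2 in ASPC was 26.7% in WT and 7.27% in KO, and Plin1 was 40.1% and 4.57%. Over all nuclei of the ASPC cluster 8, Ryr2 was 59.7 CPM in WT and 34.3 CPM in KO. The part of adipocyte RNA in the ASPC value was not tested.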

How the results depend on the processing

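No paired analysis was possible because there was 1 library per genotype. Of the values under the alternatives, 147 stayed within the counting interval or 1.5-fold of a count, 33 moved beyond it and 2 turned the direction of a difference of at least 2-fold. Signs also turned for mural Ryr2 and the Ryr2 share, with values given here, and, within their counting intervals, for adipocyte Ckb (0.11 with no filter on nuclei and 0.035 as a mean over nuclei) and mural Ckb (-0.16 under fixed filter limits and -0.42 as a mean over nuclei). With calls from named clusters, adipocyte log2 ratios were 0.50 for Gatm, 0.10 for Slc6a8, -0.85 for Ckb, -0.37 for Ryr1 (turned) and 0.53 for Ryr2, and mural ratios 1.55 for Ckb, 1.42 for Alpl and 0.22 for Ryr2. With called nuclei inside clusters of the same class, an alternative chosen after seeing the data, they were 0.55 for Gatm, 0.13 for Slc6a8, -0.99 for Ckb, -0.21 for Ryr1 (turned) and 0.54 for Ryr2. Both alternatives left 1 gene at least 2-fold higher in KO, and both leave out the 333 KO and 506 WT adipocyte nuclei outside adipocyte clusters. As a mean over nuclei, Atp2a2 was -0.60, Ryr1 1.91 and Ryr2 0.56 in adipocyte and Ryr2 -0.64 in mural nuclei, and 1 gene was at least 2-fold lower. Centred on the median ratio, Atp2a2 was -0.80 and Ryr2 0.33. With the endothelial level subtracted, Atp2a2 was -0.87, Ryr2 0.59 and mural Ckb 1.20. The other pathway genes at least 2-fold higher were 9 with named clusters, 8 at 20 UMIs and 3 at 200 UMIs, and those lower were 6 at 200 UMIs. The shares of all genes at these settings are not given, so these counts are not set against genes at large. The log2 ratio of shares of nuclei, KO to WT, thinned to 1000 and 2000 UMIs, was 1.27 and 1.20 for Alpl (0.68 unthinned), -0.53 and -0.47 for Atp2a2 (-0.26) and 0.22 and 0.073 for Ryr2 (-0.30). The cause of these shifts was not tested beyond the nuclei left out.

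Depth limits Gatm, Gamt, Ckmt2 and Ryr1, with under 100 UMIs in adipocyte nuclei, and the 65 brown-like KO nuclei. Intervals cover counting error only, and library, mouse and genotype cannot be told apart.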

Other observations

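In the skeletal muscle nuclei, genes of slow and fast fibres, chosen after their values were seen, differed between the libraries alongside Ckmt2 and Atp2a2. Myh7, the myosin of slow fibres, had 0 UMIs in 26 WT nuclei and 47 UMIs in 4 of 18 KO nuclei, or 649 CPM, at least 30.8-fold higher against a limit of 3 counts in WT. Tnnt1, a slow troponin, was 14.0 CPM in WT and 387 CPM in KO. Myh2, the myosin of oxidative fast fibres, was 63.2 and 2071 CPM, from 2 nuclei in each library. Myh4, the myosin of glycolytic fast fibres, was 5589 and 2678 CPM. Myh2 and Myh4 are among the markers by which these nuclei were called, so their levels are partly shaped by the rule. Pvalb was also looked at and its level is not given here. These nuclei came from 1 library per genotype, and which muscle was taken along with the BAT is not given.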
